A study of Homo sapiens with 24 samples.

Results

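The transcription factors PHOX2A, HAND1, HAND2, GATA2, GATA3, ISL1, TBX2 and MYCN were followed in 24 RNA sequencing libraries of human cells labelled SH-SY5Y, an established neuroblastoma cell line. These 8 genes, among 60658 in the deposited count tables, were chosen by name as factors known from noradrenergic neuroblastoma, and each name matched 1 gene. Of the 8, 6 had a mean of at least 1 CPM over the 24 libraries, where CPM are counts scaled to a library total of 1000000. MYCN had a mean of 0.72 CPM and PHOX2A of 0.09 CPM. The low levels of PHOX2A and of the enzyme genes TH and DBH go against the SH-SY5Y label. Of 17 noradrenergic markers other than the members, given after the results on the members, 6 had at least 1 CPM. The identity of the cells was not tested, so they are named here by their label only.

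The study depleted the circular RNA ciRS-7 (CDR1as) in 4 setups, and each setup had 3 knockdown (KD) and 3 non-targeting control (NTC) libraries of poly(A) RNA harvested 48 h after transfection. The agoshRNA groups received a vector expressing a hairpin RNA. The gRNA and pre-gRNA groups received a plasmid for CasRx-GFP, an RNA-guided RNA nuclease carrying a fluorescent tag, together with a plasmid expressing the guide or its precursor. The syn-gRNA groups received a chemically synthesized guide, per the series title, and how it was delivered is not given in the sources used here. All groups were transfected cells of the labelled line, so none was an untransfected reference. The labels do not say whether the 3 libraries of a group came from separate cultures, so p-values measure the spread between these libraries, which may be technical.

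Sympathetic neurons and the tumours related to them make noradrenaline from tyrosine. Their identity is held by a circuit of transcription factors that bind at each other's regulatory elements. PHOX2A is a homeodomain factor of this circuit, HAND1 and HAND2 are basic helix-loop-helix factors that pair with E proteins, and GATA2 and GATA3 are zinc-finger factors that bind GATA motifs. ISL1 is a LIM-homeodomain factor of developing sympathetic and motor neurons, TBX2 is a T-box factor, and MYCN is the MYC-family oncogene amplified in a subset of neuroblastomas. The enzymes TH and DBH, which carry out steps of noradrenaline synthesis, are textbook outputs of the circuit.

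Promoter sequence is shown for HAND1, which differed most between setups, for its paralogue HAND2 and for PHOX2A, which was nearly absent. Each sequence is the 250 bases before the annotated start, from the RefSeq promoter table of GRCh38.p14, on the minus strand of chr5:154478228-154478477 for HAND1, chr4:173530230-173530479 for HAND2 and chr11:72244177-72244426 for PHOX2A. Capitals mark GATAA or its reverse complement TTATC, the core letters of a GATA motif.
HAND1: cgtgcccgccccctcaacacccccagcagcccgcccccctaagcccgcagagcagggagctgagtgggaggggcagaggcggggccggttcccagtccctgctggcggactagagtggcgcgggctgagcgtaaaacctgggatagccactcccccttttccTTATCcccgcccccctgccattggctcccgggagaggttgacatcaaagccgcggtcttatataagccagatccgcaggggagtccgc
HAND2: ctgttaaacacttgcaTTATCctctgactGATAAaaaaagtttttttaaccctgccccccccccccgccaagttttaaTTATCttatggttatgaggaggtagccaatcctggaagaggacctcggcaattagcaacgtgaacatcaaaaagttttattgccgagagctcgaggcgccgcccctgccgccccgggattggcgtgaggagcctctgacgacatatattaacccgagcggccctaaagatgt
PHOX2A: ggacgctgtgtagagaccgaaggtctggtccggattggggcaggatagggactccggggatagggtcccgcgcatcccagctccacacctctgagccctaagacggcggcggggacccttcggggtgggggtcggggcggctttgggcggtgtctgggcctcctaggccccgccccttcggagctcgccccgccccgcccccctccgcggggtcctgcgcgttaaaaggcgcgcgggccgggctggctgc
HAND1 had 1 match, HAND2 had 3 and PHOX2A had 0. The table held windows for 7 of the 8 members, 13 windows in all, and 4 of these 13 held a match, against 20.4% of 35116 windows of the same length. A match describes letters only.

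Library totals ranged from 10994974 to 16233777 counts, so that 3 counts, taken as the limit that a count of 0 allows, were worth 0.18 to 0.27 CPM. Mitochondrial genes took 3.36 to 5.13% of counts. Columns carried the letters A, B and C, and KD and NTC libraries with the same setup and letter resembled each other. Libraries also differed in how GC-rich genes stood against GC-poor genes. An index of this, the median log2 deviation of abundant coding genes in the top quartile of GC content minus that in the bottom quartile, ran from -1.43 in agoshRNA KD B to 1.99 in agoshRNA KD A. It spanned only -0.74 to -0.24 in the 6 syn-gRNA libraries.

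Compared per kilobase of exon, HAND1 had the highest mean of the members, 12.33 ± 5.72 CPM per kilobase (SD, n = 24 libraries). GATA2 followed with 8.00 ± 1.82, TBX2 with 3.64 ± 0.83, ISL1 with 2.96 ± 0.61 and GATA3 with 2.44 ± 0.79 CPM per kilobase. HAND2 had 0.74 ± 0.31, MYCN 0.28 ± 0.09 and PHOX2A 0.05 ± 0.06 CPM per kilobase. The range over libraries overlapped between each pair of neighbours in this order. Within a library, GATA2 exceeded TBX2 and GATA3 exceeded HAND2 in 24 of 24 libraries, whereas HAND1 exceeded GATA2 in 18, TBX2 exceeded ISL1 in 17 and ISL1 exceeded GATA3 in 16. Those last 3 orders were therefore not held in every library. The order of the top pair turned in syn-gRNA, where HAND1 had 6.78 ± 1.59 CPM per kilobase (SD, n = 6) against 8.41 ± 0.89 for GATA2, and GATA2 was the higher in 4 of 6 libraries. In pre-gRNA, HAND1 had 15.03 ± 2.14 against 8.55 ± 1.51 CPM per kilobase and was the higher in 6 of 6. ISL1 and GATA3 turned in pre-gRNA, with 2.63 ± 0.72 against 2.84 ± 0.83 CPM per kilobase. Among 18516 coding genes with a count, HAND1 lay at percentile 82.2, GATA2 at 74.2, ISL1 at 54.1 and PHOX2A at 19.9 of the level per kilobase.

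PHOX2A (hg19 chromosome 11, 71950121 to 71956708, minus strand) had 31 counts in all and 0 counts in 9 of the 24 libraries. The agoshRNA libraries A, B and C held 2, 0 and 0 counts in KD and 0, 0 and 3 in NTC. The gRNA libraries held 3, 5 and 1 counts in KD and 0, 0 and 1 in NTC. The pre-gRNA libraries held 0, 2 and 0 counts in KD and 1, 1 and 3 in NTC, and the syn-gRNA libraries held 1, 2 and 0 in KD and 2, 3 and 1 in NTC. The gRNA KD libraries together held 9 counts, the highest total of the 8 groups, and gRNA NTC held 1, the lowest. No library exceeded 5 counts, and PHOX2A did not reach the count minimum of the DESeq2 fits reported here. The authors' deposited table for gRNA gave it a log2 fold change of KD over NTC of 3.16 with an unadjusted p of 0.067 and an adjusted p of 1. Their tables gave -0.60, -1.35 and -0.84 in agoshRNA, pre-gRNA and syn-gRNA, so the sign was not the same in every setup. The 3' end of PHOX2A overlaps INPPL1 on the opposite strand by 29 bases, and INPPL1 had 1030 to 2868 counts per library. The libraries were not stranded, so the few PHOX2A counts cannot be told apart from INPPL1 reads.

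HAND1 (hg19 chromosome 5, 153854532 to 153857824, minus strand) varied most of the members tested, with an SD of 0.67 on the log2 CPM scale over 24 libraries. In agoshRNA, libraries A, B and C had 40.94, 12.72 and 14.98 CPM in KD and 37.77, 12.30 and 11.60 CPM in NTC. In gRNA they had 37.20, 14.28 and 29.63 CPM in KD and 32.22, 16.63 and 26.59 in NTC. Library A was the highest in both arms of both setups. In pre-gRNA the values were 28.29, 23.58 and 23.84 CPM in KD and 28.95, 21.29 and 30.76 in NTC. In syn-gRNA they were 13.11, 12.94 and 8.46 CPM in KD and 16.04, 10.11 and 10.00 in NTC, below every pre-gRNA library.

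HAND2 (hg19 chromosome 4, 174446120 to 174451380, minus strand) had 15 to 74 counts per library. Its agoshRNA libraries A, B and C had 4.52, 1.08 and 1.54 CPM in KD and 4.10, 1.97 and 1.46 in NTC. Its gRNA libraries had 4.84, 1.72 and 3.25 CPM in KD and 4.60, 2.12 and 3.18 in NTC. As for HAND1, library A was the highest of each of these groups. The pre-gRNA values were 3.28, 2.55 and 2.63 CPM in KD and 4.56, 1.82 and 2.31 in NTC, and the syn-gRNA values 1.96, 2.60 and 2.27 in KD and 1.48, 2.17 and 1.84 in NTC. Per kilobase, HAND1 exceeded HAND2 in 24 of 24 libraries, by 7.71 to 27.57 times (median 17.28). Over the 24 libraries their log2 levels had Pearson r 0.78 and Spearman rho 0.75, and r 0.80 without the 2 libraries farthest from the HAND1 median. After correction of each library for GC content, r was 0.54. HAND1 and HAND2 were not alone in this, since GATA2 and TBX2 had r 0.82 (0.61 after GC correction) and HAND1 and GATA3 had r 0.71 (0.35). Other pairs did not vary together in this way. HAND1 had r 0.29 with GATA2 (-0.57 after GC correction) and 0.16 with TBX2 (-0.75). These are descriptions with no p, since libraries share setups and letters.

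GATA2 (hg19 chromosome 3, 128198270 to 128212028, minus strand) had 17.56 to 46.51 CPM. The agoshRNA libraries A, B and C had 45.75, 19.26 and 45.72 CPM in KD and 40.81, 17.56 and 34.24 in NTC, so library B was the low one in both arms. The gRNA libraries had 46.51, 27.82 and 28.62 CPM in KD and 36.97, 31.68 and 27.18 in NTC. The pre-gRNA libraries had 36.04, 45.39 and 30.27 in KD and 45.28, 40.64 and 31.09 in NTC, with C lowest in both arms. The syn-gRNA libraries had 31.27, 40.95 and 34.83 in KD and 37.10, 38.95 and 41.76 in NTC. KD and NTC ranges overlapped in every setup.

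GATA3 (hg19 chromosome 10, 8087341 to 8117166, plus strand) had 3.29 to 13.92 CPM. The agoshRNA libraries A, B and C had 11.29, 4.31 and 6.08 CPM in KD and 12.01, 3.29 and 7.14 in NTC. The gRNA libraries had 10.27, 8.38 and 7.23 in KD and 12.99, 9.45 and 7.68 in NTC. The pre-gRNA libraries had 12.73, 8.36 and 7.07 in KD and 13.92, 7.77 and 8.80 in NTC. The syn-gRNA libraries had 7.99, 7.65 and 5.91 in KD and 9.26, 5.77 and 6.25 in NTC, so library A was the highest of all 8 groups. Per kilobase, GATA2 exceeded GATA3 by 2.18 to 5.80 times, in 24 of 24 libraries.

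ISL1 (hg19 chromosome 5, 50679225 to 50690572, plus strand) was the steadiest of the members with a mean of at least 1 CPM, with an SD of 0.30 on the log2 CPM scale. The agoshRNA libraries A, B and C had 7.80, 6.97 and 6.59 CPM in KD and 7.30, 7.23 and 6.74 in NTC. The gRNA libraries had 8.04, 7.93 and 11.49 in KD and 10.72, 10.28 and 10.41 in NTC. The pre-gRNA libraries had 8.60, 4.57 and 8.68 in KD and 8.62, 5.32 and 9.63 in NTC, with B low in both arms. The syn-gRNA libraries had 9.49, 9.94 and 10.46 in KD and 9.19, 9.89 and 9.01 in NTC.

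TBX2 (hg19 chromosome 17, 59477257 to 59486827, plus strand) had 13.22 to 32.20 CPM. The agoshRNA libraries A, B and C had 32.20, 14.38 and 22.52 CPM in KD and 30.02, 13.22 and 18.99 in NTC. The gRNA libraries had 26.64, 21.17 and 15.90 in KD and 24.05, 21.40 and 16.62 in NTC. The order of the letters was thus the same in KD and NTC. The pre-gRNA libraries had 21.00, 26.39 and 14.27 in KD and 22.55, 25.61 and 15.35 in NTC. The syn-gRNA libraries lay close together, with 25.85, 24.07 and 23.10 in KD and 22.01, 24.34 and 25.52 in NTC.

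MYCN (hg19 chromosome 2, 16080686 to 16087129, plus strand) was low throughout, with 4 to 15 counts per library. Its agoshRNA libraries A, B and C had 15, 9 and 15 counts in KD and 11, 7 and 13 in NTC. Its gRNA libraries had 8, 12 and 8 counts in KD and 13, 10 and 8 in NTC. Its pre-gRNA libraries had 15, 8 and 14 counts in KD and 12, 7 and 12 in NTC, and its syn-gRNA libraries 4, 7 and 6 in KD and 8, 6 and 12 in NTC. The syn-gRNA KD libraries together held 17 counts, the lowest total of the 8 groups.

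Most of the variation of most members went with the column letter, as it did for coding genes in general. Of the sum of squares of log2 CPM, the letter within a setup held 87.7% for TBX2, 80.1% for GATA2, 72.5% for HAND2, 72.0% for GATA3, 50.3% for HAND1 and 44.4% for ISL1. The median over 9937 coding genes with a mean of at least 10 CPM was 72.1%. The setup held 46.6% for HAND1 and 45.9% for ISL1, against a median of 17.6%. The arm within a setup held 0.6 to 4.4% for these 6 members, against a median of 2.5%. It held 9.9% for MYCN and 30.1% for PHOX2A, which both had few counts. After GC correction the SD of log2 CPM was 0.24 in place of 0.37 for GATA2, 0.25 in place of 0.34 for TBX2 and 0.49 in place of 0.67 for HAND1, and the median over coding genes was 0.30 in place of 0.45.

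The first question was whether depletion of ciRS-7 changed these factors. No member passed the test in any setup: 0 of 7 members tested in agoshRNA, gRNA and pre-gRNA and 0 of 6 in syn-gRNA. A gene entered DESeq2 if 3 or more of the 6 libraries held 10 or more counts of it, and it was called at a Benjamini-Hochberg adjusted p under 0.05 over all genes tested. The share of all genes called was 0% in each setup, the same share as among the members. Of 27 member tests, 0 had an unadjusted p under 0.05, and edgeR and limma-voom also called 0. Over all genes, DESeq2 gave an unadjusted p under 0.05 to 0 of 17806 in agoshRNA and 17 of 18371 in gRNA. It did so for 2 of 18717 in pre-gRNA and 55 of 18513 in syn-gRNA. Few genes of any kind reached this level, so the 0 of 27 is not particular to the members. PHOX2A in each setup and MYCN in syn-gRNA did not reach the count minimum. For MYCN in syn-gRNA the authors' deposited table gave a log2 fold change of -0.34 with an unadjusted p of 0.55 and an adjusted p of 1.

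In this fit, which has no term for the column letter, the syn-gRNA setup had the smallest standard error for each of the 6 members tested there. GATA2 had a mean of 35.69 ± 4.90 CPM (SD, n = 3) in KD and 39.27 ± 2.35 in NTC, a log2 fold change of -0.14 with a 95% interval of -0.48 to 0.19. TBX2 had 24.34 ± 1.39 CPM in KD and 23.96 ± 1.79 in NTC, and its log2 fold change was 0.01 (interval -0.31 to 0.34). In this setup a 2-fold change of either gene lay outside its interval. HAND2 had 2.28 ± 0.32 CPM in KD and 1.83 ± 0.35 in NTC, and its interval, -0.45 to 1.06 around 0.31, included a 2-fold rise.

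Intervals were wider in the other setups in the same fit. In agoshRNA, HAND1 had 22.88 ± 15.68 CPM in KD and 20.56 ± 14.91 in NTC, a log2 fold change of 0.18 with an interval of -1.05 to 1.41. GATA2 had a log2 fold change of 0.30 (-0.66 to 1.26) there, and MYCN 0.40 (-0.81 to 1.62). In gRNA, ISL1 had 9.15 ± 2.03 CPM in KD and 10.47 ± 0.22 in NTC, a log2 fold change of -0.10 (-0.76 to 0.55). In pre-gRNA, HAND1 had 25.24 ± 2.65 CPM in KD and 27.00 ± 5.03 in NTC, a log2 fold change of -0.11 (-0.75 to 0.52). Over the 27 tests, log2 fold changes lay between -0.15 and 0.40 and each adjusted p in DESeq2 was 1. With the column letter as a term, 0 of 27 tests were called, with a lowest adjusted p of 0.923 in DESeq2, and many intervals were narrower. The HAND1 interval was then -0.21 to 0.61 in agoshRNA and -0.40 to 0.16 in pre-gRNA, so that a 2-fold change lay outside both. With that term the standard errors in pre-gRNA were 0.14 for HAND1, 0.20 for GATA3 and 0.14 for TBX2, against 0.20, 0.24 and 0.15 in syn-gRNA. The authors' deposited tables gave log2 fold changes of 0.20, 0.18, -0.12 and -0.01 for HAND1 in agoshRNA, gRNA, pre-gRNA and syn-gRNA, each with an adjusted p of 1.

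The KD effects of the setups were also compared with each other. For the 6 pairs of setups, 0 of 42 member tests passed the threshold in DESeq2, with 0% of all genes called in each pair. At an unadjusted p under 0.05 there were 0 of 42 member tests, beside 29 to 45 of 20172 genes in each pair. edgeR called 0 as well. The log2 differences of KD effects lay between -0.39 and 0.76, with standard errors of 0.29 to 0.75.

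The second question was whether members were stable between setups, tested separately for NTC and KD libraries in 1 DESeq2 model of the 24 libraries. Of 84 member tests, 0 passed an adjusted p under 0.05 and 9 had an unadjusted p under 0.05. edgeR called 0 of 84, with 8 at an unadjusted p under 0.05. Over all genes, DESeq2 gave an unadjusted p under 0.05 to 2372 to 3591 of 20172 in each comparison against syn-gRNA. In the comparisons among the other setups it did so for 47 to 567. The 9 member tests at this level are therefore not read as a trait of the members. The share of all 20172 genes called was 0.0496% in NTC and 0.0446% in KD for agoshRNA against gRNA, 0.0347% and 0.0446% for agoshRNA against pre-gRNA, and 0% in both arms for gRNA against pre-gRNA. Against syn-gRNA it was 1.84% in NTC and 3.14% in KD for agoshRNA, 1.32% and 1.58% for gRNA, and 3.25% and 2.52% for pre-gRNA. The setups also differ in what was transfected and in any batch of processing, which cannot be told apart.

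HAND1 was the member with the largest differences, all of them lower means in syn-gRNA. NTC libraries had a mean of 27.00 ± 5.03 CPM (SD, n = 3) in pre-gRNA and 12.05 ± 3.45 in syn-gRNA, a 2.19-fold difference with a log2 interval of 0.27 to 1.99 and an adjusted p of 0.129 in DESeq2. KD libraries had 25.24 ± 2.65 CPM in pre-gRNA and 11.50 ± 2.64 in syn-gRNA, a 2.09-fold difference (log2 interval 0.21 to 1.92, adjusted p 0.199). The ranges of these pre-gRNA and syn-gRNA groups did not overlap in either arm. How many of all genes share this was not counted, so it is not read as a trait of HAND1. gRNA KD libraries had 27.04 ± 11.68 CPM, 2.28-fold above syn-gRNA KD (adjusted p 0.149). The agoshRNA ranges overlapped those of syn-gRNA in both arms. Only agoshRNA library A, with 40.94 CPM in KD and 37.77 in NTC, lay above every syn-gRNA library. None of these differences passed the threshold. When only the 6 libraries of the 2 groups entered DESeq2, the pre-gRNA against syn-gRNA difference of HAND1 was called in NTC (adjusted p 0.00978, with 7.05% of all genes called) and in KD (adjusted p 0.046, with 3.89% called). With GC offsets the same 2 differences were 0.80 on the log2 scale, with adjusted p of 0.134 and 0.147 in DESeq2. KD and NTC libraries of the same letter resembled each other, so the 2 arms are not independent.

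ISL1 had the opposite order between pre-gRNA and syn-gRNA. Its KD libraries had 7.28 ± 2.35 CPM in pre-gRNA and 9.97 ± 0.48 in syn-gRNA, a log2 difference of -0.55 (interval -0.96 to -0.14, adjusted p 0.152 in DESeq2). Its NTC libraries had 7.86 ± 2.25 and 9.36 ± 0.46 CPM. In gRNA NTC, ISL1 had 10.47 ± 0.22 CPM, a log2 difference of 0.02 to syn-gRNA NTC, so this order did not hold there. In agoshRNA NTC it had 7.09 ± 0.31 CPM, a log2 difference of -0.43 to gRNA NTC (interval -0.84 to -0.02), which was not called. MYCN KD libraries had 1.01 ± 0.33 CPM in agoshRNA (9 to 15 counts) and 0.47 ± 0.14 in syn-gRNA (4 to 7 counts). This was a 2.17-fold difference on few counts, with an adjusted p of 0.275 in DESeq2. HAND2, which varied with HAND1, had log2 differences between -0.46 and 0.69 over the 12 comparisons, with no adjusted p below 0.528.

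GC offsets called other members. With an offset for GC content in each library, TBX2 was lower in the KD libraries of agoshRNA, gRNA and pre-gRNA than in syn-gRNA, by log2 differences of -0.41, -0.57 and -0.63. The adjusted p values in DESeq2 were 0.0294, 0.00134 and 0.000156, beside 8.08, 4.91 and 7.61% of all genes called. Among NTC libraries TBX2 was called against gRNA (-0.46, adjusted p 0.015, 5.63% called) and pre-gRNA (-0.61, adjusted p 0.00026, 8.55% called). GATA2 was called in NTC of agoshRNA (-0.53, adjusted p 0.0229, 7.05% called) and gRNA (-0.56, adjusted p 0.0178). Without the offsets the same TBX2 and GATA2 differences were not called, and the TBX2 mean was 20.55 ± 6.07 CPM in pre-gRNA KD against 24.34 ± 1.39 in syn-gRNA KD, with overlapping ranges.

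Other genes of the same families were often more abundant than the members. Per kilobase, ISL2 had 18.90 ± 4.82 CPM (SD, n = 24) and exceeded ISL1 in 24 of 24 libraries, by 3.98 to 15.40 times. TBX3 had 5.51 ± 1.96 and exceeded TBX2 in 18 of 24 libraries. GATA6 had 6.73 ± 1.56 and GATA4 4.17 ± 1.54 CPM per kilobase, both above GATA3. The member GATA2, with 8.00 ± 1.82, had the highest mean of the GATA genes. MYC, the general proliferation factor of the MYC family, had 34.70 ± 26.53 CPM per kilobase and exceeded MYCN by 17.51 to 307.37 times. GATA1, TBX4 and TBX5 had means of 0.15, 0.06 and 0.02 CPM, and GATA5 had 1.07. Of the 10 family genes, 7 had at least 1 CPM. None passed the test between setups in the main DESeq2 fit, without GC offsets, beside 0 to 3.25% of all genes.

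Counts of overlapping neighbours set a limit on the member counts, because reads of the 2 strands cannot be told apart without stranded libraries and the treatment of shared bases is not given in the sources used here. The antisense genes were matched by gene ID. GATA2-AS1 had 3759 counts against 11982 for GATA2, TBX2-AS1 had 3507 against 7357 for TBX2, and HAND2-AS1 had 358 against 900 for HAND2. MYCNOS had 49 counts against 240 for MYCN. HAND1 overlaps no annotated gene in the tables. MYCNUT had 0 counts in all 24 libraries and ISL1-DT, next to ISL1, had 541.

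The partners through which these factors act were mostly present. Of 17 partner genes, 14 had a mean of at least 1 CPM. Of 14 tested, 0 were called in the main DESeq2 fits, without GC offsets, beside 0 to 3.25% of all genes. The E protein gene TCF3, whose product pairs with HAND factors, had 173.99 ± 44.25 CPM (SD, n = 24), and LDB1, which bridges LIM factors, had 89.50 ± 20.27. MAX, the obligate partner of MYC proteins, had 39.09 ± 7.06 CPM. ZFPM1 and ZFPM2, cofactors of GATA factors, had 6.56 and 4.16 CPM, while TAL1 and LDB2 had 0.06 and 0.01 CPM.

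Most of the downstream noradrenergic genes were below 1 CPM. Of 12 catecholamine genes, 4 had a mean of at least 1 CPM: GCH1, which makes a cofactor of tyrosine hydroxylase, with 17.96 CPM, CYB561 with 11.91, SLC18A2 with 4.54 and CHGA with 1.94. TH had 1 count in all 24 libraries, DBH had 6, SLC6A2 had 4 and SLC18A1 had 2. Of 17 noradrenergic neuroblastoma markers other than the members, 6 had at least 1 CPM and 10 had at most 5 counts in any library, among them TH, DBH, STMN2, ELAVL4, TFAP2B, SOX11 and DLK1. The 6 were CHRNA3 with 13.00 CPM, RET with 6.90, INSM1 with 6.17, SLC18A2, CHGA and GAP43 with 1.21. The summed level of the list was 22.7 to 45.3 CPM per library, and 22.7 to 34.0 in the syn-gRNA libraries. Thus TH and DBH, enzymes of noradrenaline synthesis, and PHOX2A were at or near 0 in libraries labelled as a noradrenergic line, while 6 of the 17 markers and HAND1, GATA2, TBX2, ISL1, GATA3 and HAND2 had at least 1 CPM. The levels of TH, DBH and PHOX2A go against the SH-SY5Y label, and the identity of the cells was not tested.

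Markers of other cell types were measured beside these. Of 14 genes described in the kidney-lineage cells HEK293, 12 had at least 1 CPM and 9 at least 10, with a summed level of 343.3 to 651.6 CPM per library. HOXA9 had 98.18 CPM and HOXD10 94.33, while PAX8 and OSR1 had 0.01 and 0.09. Of 13 mesenchymal neuroblastoma markers, 9 had at least 1 CPM, led by VIM with 872.05 CPM, and CD44 had 0.09. These lists share genes with many tissues. For scale, 9937 of 18516 coding genes with a count had a mean of at least 10 CPM, and the lists were not tested against this share. None of their genes that were tested was called in the main DESeq2 fits, without GC offsets, beside 0 to 3.25% of all genes. With so low a share of all genes called, this does not set the lists apart. In bulk libraries, fewer cells of a type and less RNA per cell cannot be told apart.

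The genes most like each abundant member over the 24 libraries were found among 9936 coding genes with a mean of at least 10 CPM, as a description with no p. HAND1 was closest to ALX4 (Pearson r 0.97, Spearman rho 0.95), SH3RF3 (0.96 and 0.94) and WWC1 (0.96 and 0.94), with a median r of 0.16 over all genes and 177 genes at r 0.9 or more. GATA2 was closest to EDC4 (r 0.95, rho 0.93), PHKG2 (0.94 and 0.89) and RUSC1 (0.94 and 0.92). TBX2 was closest to CENPT (r 0.95, rho 0.91), RECQL4 (0.94 and 0.88) and DUS1L (0.94 and 0.90). Without the 2 libraries farthest from the member's median, these r lay between 0.88 and 0.96, and after GC correction between 0.82 and 0.94. The libraries share setups, letters and GC content.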

How the data were processed

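The deposited tables gave raw read counts of 60658 genes in 24 libraries, identical in the 4 tables, which the authors aligned to hg19, per the submitters' processing notes (Trim Galore, STAR 2.7.3a, featureCounts, DESeq2). Counting settings are not given in the sources used here. The authors' log2 fold changes, p-values and exon lengths (in the deposited tables, another measure used only to scale levels per kilobase) were also read. The 24 normalized columns per table were not used.

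CPM are counts scaled to a library total of 1000000, and log2 values add 0.5. KD was tested against NTC in DESeq2 1.42.0 (R 4.3.3) within each setup, and setups against each other in 1 model of 24 libraries, on genes that reached 10 counts in 3 or more libraries. Alternatives were edgeR 4.0.16, limma-voom 3.58.1, TMM factors, other filters, coding genes alone, column letters, GC offsets and leaving out libraries. The KD fits were tested on simulated counts for agoshRNA and syn-gRNA, with a fixed spread and no letter or GC effects. The simulation does not measure power in these libraries. The letter term, the GC offsets and the model of 24 libraries were not part of it. GC content came from GENCODE release 29, which matched 93.2% of genes.

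Members, lists and tests were chosen with earlier results of these data known. Named genes were the members, families, neighbours, partners, catecholamine genes, markers and the 3 genes most like each member with a mean of at least 10 CPM. Letters are not tied to the labels' replicate numbers.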

Additional observations from a re-analysis of the deposited data

How the results depend on the processing

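For pairs defined by the labels' replicate numbers, no paired analysis was possible because nothing links the column letters to those replicate numbers. Pairing KD and NTC by the shared column letter within a setup was possible. It was fitted as a term in DESeq2 and called 0 of 27 member tests. The number of members at a mean of at least 1 CPM was 6 with TMM-scaled sizes, without mitochondrial genes, by the median and without any 1 library, and 3 at a minimum of 10 CPM. Members called were 0 for KD against NTC and for differences of KD effects in every alternative run, and 0 between setups in all alternatives but these. GC offsets called 1 member in NTC of agoshRNA and of pre-gRNA against syn-gRNA, 2 in NTC of gRNA, and 1 in KD of agoshRNA, gRNA and pre-gRNA against syn-gRNA. The 6 libraries of the 2 groups called 1 member in NTC and 1 in KD for pre-gRNA against syn-gRNA. The cause was not tested. Over all genes, edgeR called fewer than DESeq2 against syn-gRNA: 16 in place of 371, 0 in place of 266 and 149 in place of 656 in NTC of agoshRNA, gRNA and pre-gRNA, and 192 in place of 634, 38 in place of 318 and 183 in place of 508 in KD. GC offsets called 1422, 1136 and 1725 genes in the same NTC comparisons and 1630, 991 and 1536 in KD, and the 6 libraries of the 2 groups called 1319 genes in NTC of pre-gRNA against syn-gRNA. For agoshRNA against gRNA and pre-gRNA, edgeR called 3 and 2 genes in NTC in place of 10 and 7, and 2 and 2 in KD in place of 9 and 9. GC offsets turned the sign of uncalled KD changes on the log2 scale, to -0.09 (HAND2), 0.03 (ISL1) and -0.03 (TBX2) in gRNA, and in pre-gRNA to 0.08 (HAND2), 0.03 (GATA2) and 0.05 (TBX2). limma-voom gave 0.06 and the letter term 0.04 for GATA3 in agoshRNA, and 0.03 and 0.01 for HAND2 in pre-gRNA. Leaving out a library called no member. It turned the sign of uncalled KD changes, with ranges of -0.39 to 0.85 (HAND1), -0.79 to 0.38 (HAND2), -0.36 to 0.42 (GATA3), -0.03 to 0.11 (ISL1) and -0.01 to 0.47 (TBX2) in agoshRNA. In gRNA the ranges were -0.14 to 0.53 (HAND1), -0.35 to 0.42 (HAND2), -0.12 to 0.37 (GATA2), -0.29 to 0.08 (GATA3), -0.09 to 0.35 (TBX2) and -0.15 to 0.13 (MYCN). In pre-gRNA they were -0.19 to 0.35 (HAND2), -0.40 to 0.12 (GATA2), -0.30 to 0.06 (GATA3), -0.28 to 0.03 (ISL1) and -0.45 to 0.28 (TBX2). In syn-gRNA they were -0.18 to 0.15 (HAND1), -0.07 to 0.21 (GATA3) and -0.09 to 0.07 (TBX2). Between setups TBX2 ranged from -0.30 to 0.13 in KD of agoshRNA against syn-gRNA and from -0.51 to 0.07 in NTC of pre-gRNA against syn-gRNA, while HAND1 in pre-gRNA against syn-gRNA stayed between 1.02 and 1.35 in NTC and between 0.88 and 1.18 in KD. Few counts limit PHOX2A and MYCN.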
